A study of Mus musculus with 8 samples.

Results

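The 10 genes described here serve antigen presentation on MHC class I in mouse prostate tumor cells. They code for the light chain β2-microglobulin (*B2m*), the heavy chains *H2-K1* and *H2-D1*, the peptide transporter (*Tap1*, *Tap2*), the loading chaperone tapasin (*Tapbp*), the trimming aminopeptidase ERAP1 (*Erap1*), the immunoproteasome subunits *Psmb8* and *Psmb9*, and the class I transactivator *Nlrc5*. They were taken by symbol from a table of 39089 genes. All 10 were in the table, and 9 were among the 13921 genes with enough reads to be tested, *Nlrc5* being the exception.

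RNA was sequenced from 8 samples in 4 groups of 2. Myc-CaP is a Myc-driven prostate cancer line of the FVB strain. The cells carried either an empty vector (Myc-CaP EV, called WT here) or a lentiviral guide RNA against *Arid1a* (Myc-CaP Arid1a KO, called KO), and *Arid1a* codes for a DNA-binding subunit of the SWI/SNF chromatin remodeler. All cells were grown as subcutaneous tumors in 6-week-old male FVB mice, and the tumor epithelium was sorted as EpCAM+ and CD45- cells. From day 16, mice were gavaged daily for 2 weeks with JSH-23, an inhibitor of p65 nuclear translocation given at 2 mg/kg from DMSO in corn oil, or with corn oil as vehicle. The groups are therefore WT vehicle, KO vehicle, WT JSH-23 and KO JSH-23, and every one of them carries the Myc transgene. Whether the KO cells were 1 clone and how many tumors stand behind a sample are not given in the sources used here, so the p-values measure only the spread between these samples, which may be technical. The titles of the JSH-23 samples also hold a tag, RNA3, which those of the vehicle samples lack. What it marks is not given, and it cannot be told apart from the treatment.

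MHC class I molecules show peptides from inside a cell to CD8 T cells. The proteasome cuts proteins into peptides, TAP carries them into the endoplasmic reticulum, ERAP1 trims them, and tapasin holds the empty heavy chain and β2-microglobulin beside TAP until a peptide fits. Interferon and NF-κB signaling are the classical inducers of the pathway, and tumors often carry it at a low level.

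Library totals ran from 16401581 to 21972231 counts, so that 3 counts, taken as the detection floor, equal 0.137 to 0.183 CPM (counts scaled to library size). The common coefficient of variation within groups was 1.61%, and counts of replicates differed by more than counting noise in each group (chi-square per degree of freedom 1.46 to 1.57). *Arid1a* RNA stood at 156 and 161 CPM in WT vehicle, 144 and 155 in WT JSH-23, 103 and 106 in KO vehicle and 93.8 and 95.9 in KO JSH-23. It was thus lower in KO without being lost (log2 fold change -0.60 ± 0.0364 SE under vehicle, adjusted p = 1.39e-23), and why RNA remained was not tested. The label did not match the epithelial markers: *Epcam* had 0 to 4 counts in any sample, *Cdh1* 1 to 19 and *Krt18* 4 to 18, while *Krt8* reached 32.8 to 113 CPM. Of 14 leukocyte markers, *Cd8a* and *Ly6g* were at 0 in all 8 samples, *Cd3e* and *Nkg7* had at most 2 counts, and *Ptprc*, which codes for CD45, had at most 10. The macrophage genes *Adgre1* (17 to 19 counts in WT vehicle, 0 in KO vehicle) and *Lyz2* (9.72 against 3.21 CPM) were lower in KO, whereas *Cd68* was higher (7.0 against 17.5 CPM). In WT JSH-23 replicate 2 *Adgre1* had 1 count, against 17 in replicate 1. In bulk RNA, fewer cells of a type and less RNA per cell cannot be told apart.

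Levels of the class I genes spanned a wide range. Per transcript length, the mean over the 8 samples was 899 TPM (a level scaled for gene length and library size) for *B2m*, 372 for *H2-D1*, 99.4 for *Tapbp* and 33.9 for *H2-K1*. *Tap2* followed at 27.9 TPM, *Tap1* at 14.9, *Erap1* at 14.5, *Psmb8* at 9.63, *Psmb9* at 8.55 and *Nlrc5* at 0.0689. In that order the sample ranges of *H2-K1* (27.9 to 43.3 TPM) and *Tap2* (22.4 to 35.9) overlapped, as did those of *Tap1* (12.2 to 16.5), *Erap1* (8.98 to 20.1), *Psmb8* (5.85 to 17.0) and *Psmb9* (6.25 to 13.8). *B2m*, *H2-D1* and *Tapbp* each stood apart from their neighbors. The tumor cells thus held the light chain RNA in abundance and the immunoproteasome genes at low levels. Between the heavy chains *H2-D1* had the higher value, within the limit on H2 reads given below.

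The light chain *B2m* and the heavy chain *H2-D1* were lowest in WT vehicle, and the heavy chain *H2-K1* was highest in KO vehicle. *B2m* (chr2:122147687-122153082, + strand, mm10) stood at 238 and 231 CPM in WT vehicle, 318 and 309 in WT JSH-23, 347 and 347 in KO vehicle and 391 and 396 in KO JSH-23. Its 4 groups did not overlap, and WT vehicle was the lowest. *H2-D1* (chr17:35263094-35267497, + strand) had 212 and 213 CPM in WT vehicle, 287 and 279 in WT JSH-23, 286 and 274 in KO vehicle and 301 and 296 in KO JSH-23. WT vehicle was again the low group, and WT JSH-23 and KO vehicle overlapped. *H2-K1* (chr17:33996012-34000619, - strand) had 29.5 and 31.8 CPM in WT vehicle, 31.7 and 33.4 in WT JSH-23, 42.0 and 41.8 in KO vehicle and 31.8 and 32.7 in KO JSH-23. Here KO vehicle alone was high and the other groups overlapped. FVB mice carry the H-2q haplotype and the mm10 reference comes from C57BL/6, which carries H-2b. Reads of these polymorphic and closely related genes, counted at their best match, may be split between *H2-K1*, *H2-D1* and the H2-Q and H2-T genes, so that the heavy chain values are uncertain one by one. The TPM ratio of *H2-D1* plus *H2-K1* to *B2m* was 0.483 and 0.504 in WT vehicle, 0.482 and 0.484 in WT JSH-23, 0.451 and 0.432 in KO vehicle and 0.409 and 0.398 in KO JSH-23. It was lower in all 4 KO samples than in any WT sample.

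The promoters of *B2m* and *H2-D1* are shown because they hold matches to the classical elements of class I genes and can be set beside those of the genes that fell under JSH-23. Each window runs from 250 bases before to 50 after the start in RefSeq (GRCm38.p6, the same assembly as mm10), written 5′ to 3′ on the strand of the gene, with motif matches in capitals. The *B2m* window is chr2:122147437-122147736 (+ strand) and that of *H2-D1* is chr17:35262844-35263143 (+ strand).
B2m: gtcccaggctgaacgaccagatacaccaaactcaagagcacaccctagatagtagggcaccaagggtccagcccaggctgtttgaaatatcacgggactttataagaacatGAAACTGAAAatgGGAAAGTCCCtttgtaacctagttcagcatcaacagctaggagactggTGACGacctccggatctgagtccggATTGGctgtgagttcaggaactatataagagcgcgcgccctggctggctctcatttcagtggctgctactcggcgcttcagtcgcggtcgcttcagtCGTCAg
H2-D1: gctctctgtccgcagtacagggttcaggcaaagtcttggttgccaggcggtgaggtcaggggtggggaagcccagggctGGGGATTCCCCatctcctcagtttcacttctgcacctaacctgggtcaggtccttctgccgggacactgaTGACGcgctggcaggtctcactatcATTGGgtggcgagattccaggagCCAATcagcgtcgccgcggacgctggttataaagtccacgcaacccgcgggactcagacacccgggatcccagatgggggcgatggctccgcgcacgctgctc
The first capitals in *B2m* are an ISRE-like match (the interferon response element core, searched as GAAANNGAAA) and the second a match to the κB consensus on the other strand. In *H2-D1* the first capitals are a κB palindrome. The shorter capitals in both are TGACG (the core of the site bound by CREB and ATF factors) and CCAAT, or their complements CGTCA and ATTGG.

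Peptide transport, loading and trimming genes did not move as a block. *Tap1* (chr17:34187556-34197225, + strand) kept to 16.4 to 19.5 CPM in all samples. It read 17.8 and 16.4 CPM in WT vehicle, 19.5 and 19.3 in WT JSH-23, 19.2 and 19.0 in KO vehicle and 17.3 and 16.8 in KO JSH-23. *Tap2* (chr17:34204479-34216321, + strand) had 25.8 and 22.1 CPM in WT vehicle, 35.3 and 36.5 in WT JSH-23, 29.4 and 25.5 in KO vehicle and 27.6 and 28.5 in KO JSH-23. Its WT JSH-23 samples were above the rest, and WT vehicle and KO vehicle overlapped.

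*Tapbp* (chr17:33919478-33929290, + strand), the tapasin gene, had 113 and 108 CPM in WT vehicle, 108 and 116 in WT JSH-23, 145 and 149 in KO vehicle and 79.4 and 76.6 in KO JSH-23. KO vehicle was the highest group and KO JSH-23 the lowest, with both WT groups between them. *Erap1* (chr13:74639573-74693205, + strand), on another chromosome, had 32.9 and 36.6 CPM in WT vehicle, 30.1 and 31.5 in WT JSH-23, 45.3 and 44.9 in KO vehicle and 23.7 and 25.5 in KO JSH-23. Again KO vehicle was the highest group, KO JSH-23 the lowest and both WT groups lay between them. Their promoter windows, chr17:33919228-33919527 (+ strand) for *Tapbp* and chr13:74639603-74639902 (+ strand) for *Erap1*, are shown as those of the members with the largest falls with JSH-23 in KO.
Tapbp: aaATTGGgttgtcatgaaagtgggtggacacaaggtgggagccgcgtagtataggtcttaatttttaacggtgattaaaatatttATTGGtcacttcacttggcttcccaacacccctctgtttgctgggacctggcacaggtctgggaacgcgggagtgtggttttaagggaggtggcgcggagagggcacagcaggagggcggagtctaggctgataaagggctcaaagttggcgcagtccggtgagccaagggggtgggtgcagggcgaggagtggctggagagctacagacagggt
Erap1: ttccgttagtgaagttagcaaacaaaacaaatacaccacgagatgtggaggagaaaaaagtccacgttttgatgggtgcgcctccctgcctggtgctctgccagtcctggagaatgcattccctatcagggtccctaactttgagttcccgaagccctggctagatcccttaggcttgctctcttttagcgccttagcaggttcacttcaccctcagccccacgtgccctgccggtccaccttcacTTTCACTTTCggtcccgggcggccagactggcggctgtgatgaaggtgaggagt
The capitals in *Tapbp* are CCAAT matches on the other strand, and those in *Erap1* are an ISRE-like match on the other strand that spans the start.

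The immunoproteasome genes had the largest relative difference between genotypes among the tested members under vehicle. *Psmb8* (chr17:34198195-34201454, + strand), which replaces the constitutive subunit *Psmb5*, had 53 and 61 counts in WT vehicle, 62 and 48 in WT JSH-23, 137 and 169 in KO vehicle and 100 and 97 in KO JSH-23. In CPM these were 3.15 and 3.59, 3.46 and 2.92, 7.57 and 8.19, and 5.40 and 4.65. All 4 KO samples were above all 4 WT samples. *Psmb9* (chr17:34182030-34187330, - strand), which replaces *Psmb6*, had 48 and 49 counts in WT vehicle, 57 and 54 in WT JSH-23, 93 and 120 in KO vehicle and 71 and 65 in KO JSH-23. In CPM these were 2.85 and 2.88, 3.18 and 3.28, 5.14 and 5.81, and 3.84 and 3.12. KO vehicle was high, and KO JSH-23 overlapped WT JSH-23.

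**Figure D1:**
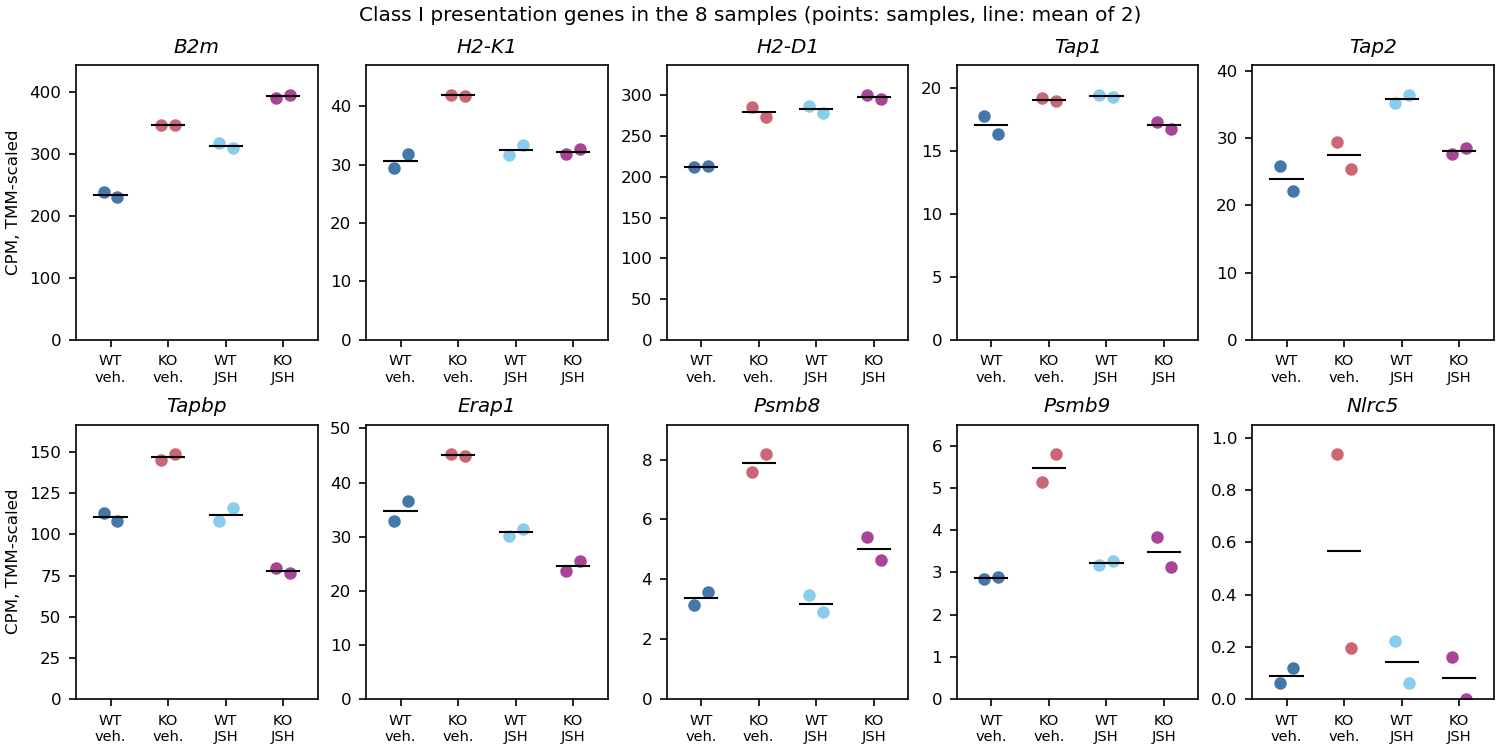
CPM scaled by TMM factors (vertical axes, each from 0) of the 10 class I genes in the 4 groups (horizontal axes; WT or KO, vehicle or JSH-23), with a point per sample and a line at the mean of 2. *Psmb8*, *Psmb9*, *Tapbp*, *Erap1* and *H2-K1* are highest in KO vehicle, while *B2m* and *H2-D1* are lowest in WT vehicle.

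*Psmb9* and *Tap1* are neighbors read in opposite directions, with starts 226 bases apart in RefSeq, and their promoter windows share 275 identical bases. *Psmb8* lies beyond *Tap1*. The windows of *Psmb9* (chr17:34187281-34187580, - strand, holding most of the *Tap1* window in reverse) and *Psmb8* (chr17:34197945-34198244, + strand) are shown because these were the tested members that rose at least 1.5-fold in KO under vehicle.
Psmb9: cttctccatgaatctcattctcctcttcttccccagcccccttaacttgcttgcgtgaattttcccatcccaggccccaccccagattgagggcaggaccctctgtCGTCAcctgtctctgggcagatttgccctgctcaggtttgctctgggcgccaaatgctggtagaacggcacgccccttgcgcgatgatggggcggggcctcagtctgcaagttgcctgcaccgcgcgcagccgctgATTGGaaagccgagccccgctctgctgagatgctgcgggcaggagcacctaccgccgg
Psmb8: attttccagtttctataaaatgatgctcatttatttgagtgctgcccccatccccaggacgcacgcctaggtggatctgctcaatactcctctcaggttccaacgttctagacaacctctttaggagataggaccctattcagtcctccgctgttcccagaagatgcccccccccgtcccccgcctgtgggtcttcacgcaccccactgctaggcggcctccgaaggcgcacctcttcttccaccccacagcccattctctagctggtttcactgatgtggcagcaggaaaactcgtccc
The capitals in *Psmb9* are a TGACG and a CCAAT match on the other strand, and *Psmb8* held no match to any of the 4 motifs searched. Although they share a promoter region, *Psmb9* and *Tap1* did not keep a fixed ratio. The TPM ratio of *Psmb9* to *Tap1* was 0.442 and 0.486 in WT vehicle, 0.450 and 0.471 in WT JSH-23, 0.739 and 0.844 in KO vehicle and 0.612 and 0.512 in KO JSH-23. All KO samples were above all WT samples.

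*Nlrc5* (chr8:94434335-94527272, + strand), the transactivator of class I genes, was at or near the floor. It had 1 and 2 counts in WT vehicle, 4 and 1 in WT JSH-23, 17 and 4 in KO vehicle and 3 and 0 in KO JSH-23. One sample, KO vehicle replicate 1, held most of its reads. Without the filter on low counts, the edgeR log2 fold change was 2.55 (adjusted p = 0.0425) for KO against WT under vehicle and -2.74 (adjusted p = 0.0177) for JSH-23 against vehicle in KO. With KO vehicle replicate 1 left out these were 1.08 (adjusted p = 0.761) and -1.26 (adjusted p = 0.632), so both calls rest on that sample.

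The first comparison asked whether loss of *Arid1a* changes class I presentation genes in tumors on vehicle. *Psmb8* and *Psmb9* rose in KO, by 2.34-fold and 1.91-fold. All 9 tested genes had a positive fold change, where 49.6% of all genes had a negative one. The 9 are not independent, since some lie side by side on chromosome 17. *B2m*, *Tapbp*, *H2-K1*, *H2-D1* and *Erap1* were 1.30-fold to 1.48-fold higher, short of the 1.5-fold threshold, although *B2m* passed it with library size scaling (0.59 on the log2 scale, adjusted p = 3.23e-33). A gene was called where its change was at least 1.5-fold with an adjusted p under 0.05 in edgeR's quasi-likelihood test, Benjamini-Hochberg adjusted over all genes tested. By this rule 2 of 9 members were higher, against 7.48% of all genes, and 0 were lower, against 5.16% (0 also at an unadjusted p under 0.05 and with DESeq2 or limma). On the log2 scale the differences were 1.23 ± 0.175 SE for *Psmb8* (adjusted p = 1.03e-08), 0.94 ± 0.201 for *Psmb9* (adjusted p = 5.94e-05) and 0.56 ± 0.0245 for *B2m* (adjusted p = 2.95e-31). The remaining genes ranged from 0.16 for *Tap1* (adjusted p = 0.146), the sole member past 0.05, to 0.45 for *H2-K1* (adjusted p = 4.59e-08). The median of the members was 0.41 and that of all genes 0.00. *Psmb9* was not called when the difference itself was tested against 1.5-fold (adjusted p = 0.182).

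Beside these genes, *Cd68* was higher in KO vehicle by 1.32 on the log2 scale (adjusted p = 4.95e-15). Of the 5 leukocyte markers that could be tested, 4 were called lower with edgeR, where 5.16% of all genes were. DESeq2 called 2 of them lower and limma 3. The summed level of the 14 leukocyte markers was 19.6 and 20.8 CPM in WT vehicle and 20.1 and 22.4 in KO vehicle, with *Cd8a*, *Ly6g* and other defining markers at 0. The summed level of 4 epithelial markers was 60.7 and 51.8 CPM in WT vehicle and 113 and 113 in KO vehicle, almost all of it *Krt8*. The part of these cells and markers in the class I differences was not tested.

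Under JSH-23 the genotypes differed otherwise. *Psmb8* was still higher in KO, by 1.57-fold, while *Psmb9* did not differ beyond its error (log2 fold change 0.10, 95% interval -0.31 to 0.51, and -0.08 on log2(TPM + 1)). *Tapbp*, *Tap2* and *Erap1* were 1.43-fold, 1.28-fold and 1.25-fold lower in KO, under the 1.5-fold threshold. With edgeR, 1 of 9 members was called higher, against 3.74% of all genes, and 0 lower, against 4.97% (4 at an unadjusted p under 0.05, 0 with DESeq2 and 1, *Tapbp*, with limma on TPM). The log2 fold change of *Psmb8* was 0.65 ± 0.190 SE (adjusted p = 0.00341), and its call was lost without WT JSH-23 replicate 2 (0.53, adjusted p = 0.0532) or KO JSH-23 replicate 1 (0.55, adjusted p = 0.0434). *Tapbp* stood at -0.52 ± 0.0410 (adjusted p = 4.96e-18), *Tap2* at -0.35 ± 0.0753 (adjusted p = 5.82e-05) and *B2m* at 0.33 ± 0.0231 (adjusted p = 2.78e-20). *H2-D1* had 0.08 (adjusted p = 0.0102), which became 0.00 with library size scaling and -0.11 on TPM. The members' median was -0.01, as was that of all genes. In the same comparison *Krt8* was higher in KO by 1.60 on the log2 scale, and *Cd68* was called higher. Of the tested markers, 3 of 5 for leukocytes and 3 of 5 for fibroblasts were called lower with edgeR, where 4.97% of all genes were. DESeq2 called 1 and 1 of these lower, and limma 1 and 3. Limma called 0 leukocyte markers higher. The summed fibroblast markers stood at 63.5 and 62.0 CPM in WT JSH-23 against 43.6 and 41.9 in KO JSH-23. Most of that sum was *Pdgfra*, which was not called here. The summed leukocyte markers stood at 19.3 and 10.4 CPM against 13.1 and 10.2. *Cd8a* and *Ly6g* were at 0, and the part of such cells in the class I values was not tested.

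Tapasin, *Erap1* and the immunoproteasome genes fell with JSH-23 in KO tumors. *Tapbp* fell to 0.531 of its vehicle level, *Erap1* to 0.546, *Psmb9* to 0.631 and *Psmb8* to 0.636. With TMM scaling *B2m*, *H2-D1*, *Tap1* and *Tap2* were within 1.13-fold of vehicle. With edgeR, 4 of 9 members were called lower, where 16.9% of all genes were, and 0 higher, where 9.10% of all genes were (2 at an unadjusted p under 0.05, 0 with DESeq2 or limma). The log2 fold change was -0.91 ± 0.0384 SE for *Tapbp* (adjusted p = 1.41e-32), -0.87 ± 0.0691 for *Erap1* (adjusted p = 2.5e-18), -0.66 ± 0.188 for *Psmb9* (adjusted p = 0.00142) and -0.65 ± 0.157 for *Psmb8* (adjusted p = 0.000198). *H2-K1*, at -0.38 ± 0.0656 (adjusted p = 7.92e-07), was lower by less than 1.5-fold.

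Some of these values turned on the scaling or on 1 sample. *B2m* had 0.18 and *H2-D1* 0.09 on the log2 scale, but on TPM they had -0.06 and -0.15, and *H2-D1* had -0.02 with library size scaling. *Tap2*, at 0.04, had -0.08 with library size scaling and -0.20 on TPM. *Tap1*, at -0.16 (adjusted p = 0.104), kept its direction but reached -0.40 among the fits that kept all samples. Its mean was 16.4 TPM in KO vehicle and 12.5 in KO JSH-23. The median of all genes moved from -0.02 to -0.13 with library size scaling and to -0.20 on log2(TPM + 1), while the members' median stayed -0.36, -0.36 and -0.39 relative to it. Without KO JSH-23 replicate 2, *Psmb8* (-0.52, adjusted p = 0.0146) and *Psmb9* (-0.49, adjusted p = 0.0566) were no longer called and 2 members remained. Without KO vehicle replicate 2, *Psmb9* (-0.56, adjusted p = 0.0388) was not called.

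Levels of other cell markers moved in the same comparison. The summed CPM of 14 leukocyte markers was 20.1 and 22.4 in KO vehicle and 13.1 and 10.2 in KO JSH-23, led by *Cd68*. That of 6 MHC class II genes went from 10.5 and 9.83 to 3.95 and 4.08, and that of 6 fibroblast markers from 65.6 and 65.7 to 43.6 and 41.9, led by *Pdgfra*. Of those tested, 1 of 5, 2 of 3 and 1 of 5 were called lower with edgeR, where 16.9% of all genes were. DESeq2 called 1 of the 3 class II genes lower. *H2-Eb1* and *Pdgfrb* had at most 5 and 6 counts in any sample, and 3 endothelial markers summed to between 0.436 and 1.22 CPM. The part of such cells in the class I differences was not tested.

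In WT tumors *Tap2* alone among the members passed the rule with JSH-23, at the threshold itself, while *Tapbp* and *H2-K1* stayed within 1.06-fold of vehicle. *B2m* and *H2-D1* were each 1.33-fold higher, under the threshold. With edgeR, 1 of 9 members was called higher, against 5.55% of all genes, and 0 lower, against 10.2% (1 at an unadjusted p under 0.05, 0 with DESeq2 or limma). The log2 fold change was 0.59 ± 0.0797 SE for *Tap2* (adjusted p = 2.52e-09), 0.42 ± 0.0252 for *B2m* (adjusted p = 1.51e-23) and 0.41 ± 0.0270 for *H2-D1* (adjusted p = 7.5e-22). The interval for *Psmb8* was -0.49 to 0.34 and that for *Psmb9* -0.27 to 0.61. *Tap2* lay at the threshold: its call was lost without WT vehicle replicate 2 (0.48) or WT JSH-23 replicate 2 (0.57), with library size scaling (0.58) and on TPM (0.53). The latter sample is the one nearly without *Adgre1*. The summed epithelial markers went from 60.7 and 51.8 CPM in WT vehicle to 33.7 and 33.1 in WT JSH-23, *Krt8*, *Csf1r* and *H2-DMa* were called lower and *Col3a1* higher (1.35), and their part in the class I values was not tested. *Csf1r* was not called with DESeq2 or limma, nor *Col3a1* with limma. The median of the members was 0.17 and that of all genes -0.01.

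The 2 genotypes differed in their response to JSH-23, as tested by the interaction of genotype and treatment (log2 fold change in KO minus that in WT). Every tested member had a negative value, as had 50.5% of all genes. With edgeR 3 of 9, *Tapbp*, *Erap1* and *Psmb9*, passed the 1.5-fold rule (5 with library size scaling and 6 on TPM), against 5.76% of all genes. None of the 9 was called higher with edgeR, DESeq2 or limma, or at an unadjusted p under 0.05, where 3.30% of all genes were higher with edgeR. The value was -0.93 ± 0.0553 SE for *Tapbp* (adjusted p = 1.46e-23), -0.70 ± 0.101 for *Erap1* (adjusted p = 2.84e-08) and -0.84 ± 0.293 for *Psmb9* (adjusted p = 0.018). *Tap2* (-0.55), *H2-K1* (-0.46), *Tap1* (-0.35), *H2-D1* (-0.32) and *B2m* (-0.23) had adjusted p of at most 0.0296 at smaller sizes. *Psmb8*, at -0.58 (95% interval -1.10 to -0.06), missed the threshold (adjusted p = 0.0748). *Psmb9* was not called with DESeq2 (adjusted p = 0.117), nor without KO vehicle replicate 2 (-0.74, adjusted p = 0.0803) or KO JSH-23 replicate 2 (-0.67, adjusted p = 0.0993). The members' median was -0.55 and that of all genes 0.00. The 5 comparisons share samples, and no overlap between them was tested.

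**Figure D2:**
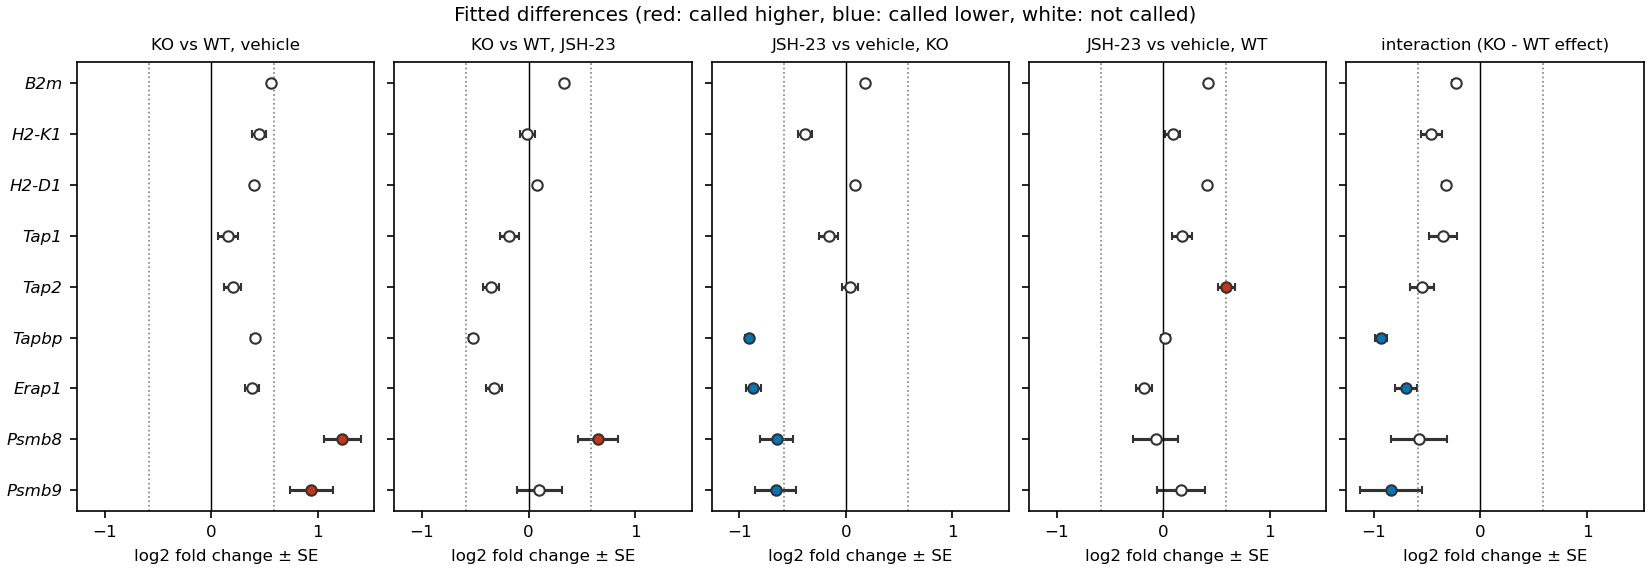
Log2 fold changes (horizontal axes, bars ± 1 SE of the fit) of the 9 tested class I genes (rows) in the 5 comparisons (panels), with dotted lines at 1.5-fold. *Psmb8* and *Psmb9* are called higher in KO under vehicle, *Tapbp*, *Erap1*, *Psmb8* and *Psmb9* lower with JSH-23 in KO, and all 9 interaction values lie left of 0, while the small positive values of *B2m* and *H2-D1* with JSH-23 in KO turn negative on TPM, as do those of *Tap2* there, of *H2-D1* and *Psmb9* in KO against WT under JSH-23, and of *Tapbp* with JSH-23 in WT.

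The third inducible subunit of the proteasome followed another pattern. *Psmb10*, which replaces *Psmb7*, had 27.0 and 23.6 CPM in WT vehicle, 24.3 and 27.7 in KO vehicle, 12.3 and 11.9 in WT JSH-23 and 12.8 and 12.6 in KO JSH-23. It fell with JSH-23 in both genotypes, by 1.07 on the log2 scale in WT (adjusted p = 5.32e-15) and by 1.04 in KO (adjusted p = 6.17e-16), with an interaction of 0.03 (95% interval -0.24 to 0.30). Between genotypes under vehicle its difference was 0.04 (95% interval -0.12 to 0.21). *Psmb5*, *Psmb6* and *Psmb7* were not called in any comparison, the farthest being *Psmb7* in the interaction, at 0.52.

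**Figure D3:**
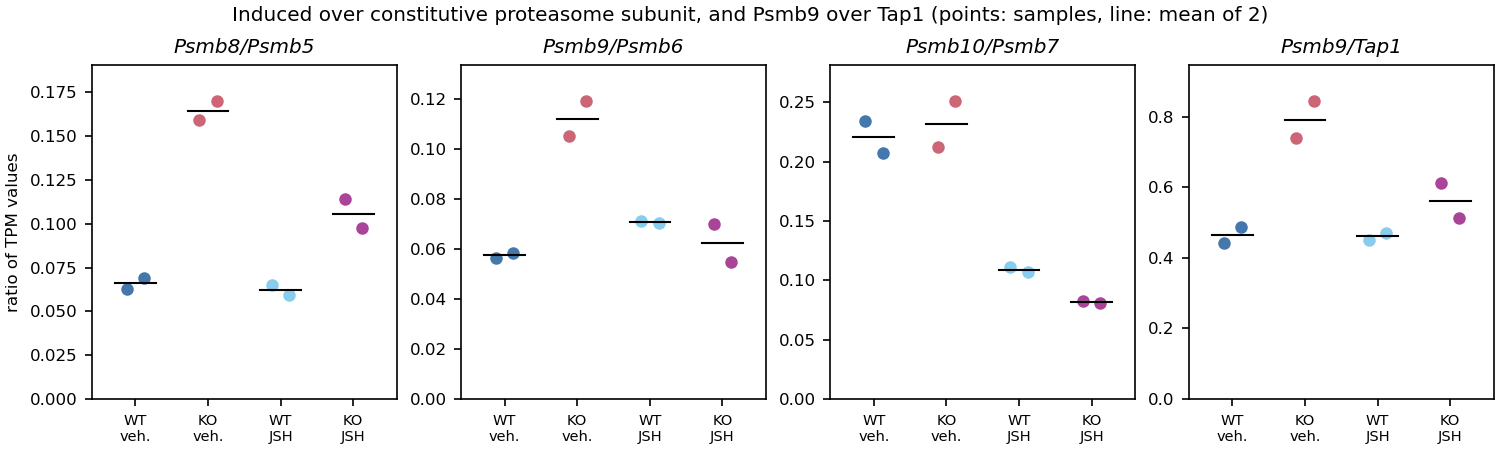
Ratios of TPM values (vertical axes from 0) of each inducible proteasome subunit to the constitutive one it replaces, and of *Psmb9* to its neighbor *Tap1*, in the 4 groups, with a point per sample and a line at the mean of 2. *Psmb8*/*Psmb5* is 0.159 and 0.170 in KO vehicle and at most 0.069 in WT, whereas *Psmb10*/*Psmb7* is at least 0.207 in all vehicle samples and at most 0.111 in all JSH-23 samples.

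The subunit ratios, given as a description, set the genes on 1 scale. *Psmb8* to *Psmb5* in TPM was 0.063 and 0.069 in WT vehicle, 0.0648 and 0.0595 in WT JSH-23, 0.159 and 0.170 in KO vehicle and 0.114 and 0.0973 in KO JSH-23. *Psmb9* to *Psmb6* was 0.0563 and 0.0583, 0.0711 and 0.0702, 0.105 and 0.119, and 0.0697 and 0.0546 in the same order. *Psmb8* and *Psmb9* thus stayed far below the constitutive subunits they replace in all groups. *Psmb10* to *Psmb7* ran from 0.0812 in a KO JSH-23 sample to 0.251 in a KO vehicle sample.

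Other genes of the pathway mostly stayed under the fold threshold. A further 8 class I heavy chain genes could be tested, among them *H2-T10*, which is annotated as a transcribed pseudogene. *H2-Q6* fell in KO under vehicle (15 and 16 counts in WT, 1 and 3 in KO, log2 fold change -3.07 ± 0.729 SE, adjusted p = 0.000267) and was lower under JSH-23 (-2.21, adjusted p = 0.043). *H2-T23*, which codes for Qa-1, a ligand of the inhibitory receptor NKG2A, was lower in KO under JSH-23 (-0.85, adjusted p = 7.28e-07), with an interaction of -0.59 (adjusted p = 0.0131). It had 161 and 153 counts in WT vehicle, 179 and 148 in WT JSH-23, 148 and 152 in KO vehicle and 106 and 102 in KO JSH-23. *Mr1*, which presents vitamin B metabolites, rose with JSH-23 in KO (0.59, adjusted p = 1.14e-07) and in WT (0.80, adjusted p = 5.46e-09). *H2-Q4* fell with JSH-23 in KO (-0.76, adjusted p = 8.26e-06). In all, 0 were called higher and 1 lower in KO under vehicle, 0 and 2 under JSH-23, 1 and 1 with JSH-23 in KO, 1 and 0 in WT, and 0 and 1 in the interaction. In that order all genes had 7.48% and 5.16%, 3.74% and 4.97%, 9.10% and 16.9%, 5.55% and 10.2%, and 3.30% and 5.76%. DESeq2 called 1 of the 2 lower under JSH-23 and not the interaction of *H2-T23*. The share lower with JSH-23 in KO, 1 of 8, was below the 16.9% of all genes. The limit on reads shared between H2 genes holds for these too.

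Among 10 other loading and trimming genes, such as the chaperones *Calr*, *Canx* and *Pdia3*, *Tapbpl* (the tapasin-related TAPBPR) fell with JSH-23 in KO (-0.85, adjusted p = 6.11e-10) and in WT (-0.64, adjusted p = 2.31e-05). Its CPM was 12.8 and 10.7 in WT vehicle, 15.3 and 17.0 in KO vehicle, 6.98 and 8.15 in WT JSH-23 and 8.92 and 8.97 in KO JSH-23. It was the sole call in this list with edgeR, where 16.9% of all genes fell in KO and 10.2% in WT. Between genotypes 0 of 10 were called by edgeR, DESeq2 or limma, while 9 under vehicle and 8 under JSH-23 had an unadjusted p under 0.05 at smaller sizes. Of all genes, edgeR called 7.48% higher and 5.16% lower under vehicle, and 3.74% and 4.97% under JSH-23. Even at an adjusted p under 0.05, 7032 and 6536 of 13921 genes passed without the fold threshold. Among 8 further proteasome genes *Psmb10* was the sole call with edgeR, beside the same shares of all genes.

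Genes of the known inducers of the pathway were read in the same way. Among 14 tested interferon signaling genes, the inhibitor *Socs3* was the sole call in KO against WT under vehicle (0.63, adjusted p = 9.16e-24), a share near the 7.48% of all genes called higher, and 0 were called under JSH-23 by edgeR, DESeq2 or limma, where 10 had an unadjusted p under 0.05. Under JSH-23 edgeR called 3.74% of all genes higher and 4.97% lower, and 6536 of 13921 had an adjusted p under 0.05. *Irf1*, a transcription factor of class I promoters, was abundant, at 99.8 to 105 CPM in WT vehicle and 124 to 131 in KO vehicle, a difference of 0.31 (adjusted p = 1.1e-10) under the fold threshold. *Ifng* had 0 counts in all 8 samples, where a count of 0 allows up to 0.137 to 0.183 CPM, and *Ifnb1* at most 1. With JSH-23 in KO, *Stat2* (0.78), *Ifnar2* (0.72) and *Irf2* (0.62) rose and *Socs1* (-0.73) and *Ifngr2* (-0.59) fell, and in WT *Stat2* (0.78) rose. In KO limma on TPM called 0 of this list higher and 3 lower, against 3 and 2 with edgeR. By edgeR, 9.10% of all genes rose and 16.9% fell in KO, and 5.55% rose in WT. *Ifngr2* had an interaction of -0.80 (adjusted p = 0.0374), which DESeq2 did not call.

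Of 14 factors that bind class I promoters or regulate them, 0 were called between genotypes by edgeR, DESeq2 or limma (8 under vehicle and 7 under JSH-23 had an unadjusted p under 0.05). Of all genes, edgeR called 7.48% higher and 5.16% lower under vehicle, and 3.74% and 4.97% under JSH-23. At an adjusted p under 0.05 without the fold threshold, 7032 and 6536 of 13921 genes passed. With JSH-23 in KO, 3 of the 14 fell, near the 16.9% of all genes. They code for subunits of NF-κB: *Rela* by 0.89 (adjusted p = 1.52e-27), *Relb* by 0.74 (adjusted p = 3e-09) and *Nfkb1* by 0.64 (adjusted p = 1.43e-17). *Rela*, which codes for p65, had 81.1 and 81.1 CPM in WT vehicle, 60.6 and 57.1 in WT JSH-23, 96.5 and 103 in KO vehicle and 54.4 and 53.3 in KO JSH-23. Both JSH-23 groups were below both vehicle groups. In WT 0 of the 14 were called by edgeR, DESeq2 or limma (9 had an unadjusted p under 0.05), and in the interaction 0 by edgeR or DESeq2 and 1 by limma (9 had an unadjusted p under 0.05). Of all genes, edgeR called 5.55% higher and 10.2% lower in WT, and 3.30% and 5.76% in the interaction. Without the fold threshold, 7774 and 5346 of 13921 genes had an adjusted p under 0.05. *Rfx5*, a subunit of the RFX complex on class I promoters, had 52.6 and 53.5 CPM in WT and KO vehicle and 44.6 and 42.4 in WT and KO JSH-23, all under the fold threshold.

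Promoter windows were found for 8 of the 10 members, those of *Tap2* and *Nlrc5* being missing. Of 32817 windows of the same length, 3.43% held the ISRE-like motif on either strand, and among the members *B2m* (from base -139 to -130 before the start) and *Erap1* (from -4 to 6, counting the first transcribed base as 1) did. The κB consensus was in 4.50% of windows and in those of *B2m*, *H2-K1* and *H2-D1*. CCAAT was in 37.4% of windows and 6 of the 8, and TGACG in 20.8% and 5 of the 8. The *Tapbp*, *Erap1*, *Psmb8* and *Psmb9* windows printed above hold no κB match, and those of *B2m*, *H2-K1* and *H2-D1* hold it. *B2m*, *H2-K1* and *H2-D1* were not called with JSH-23 in either genotype by edgeR, nor was *Tap1*, whose window holds no κB match either, although *H2-K1* was called lower in KO on TPM (-0.60, adjusted p = 2.54e-05). A match is a stretch of letters and not a bound site, and the windows come from the C57BL/6 reference. The absence of a match covers this window and the exact pattern searched only, so that near matches were not counted. Whether κB or ISRE-like sites have a part in the class I values was not tested. For *H2-K1* and *Erap1* the RefSeq start lies inside the gene as the count table bounds it.

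**Figure D4:**
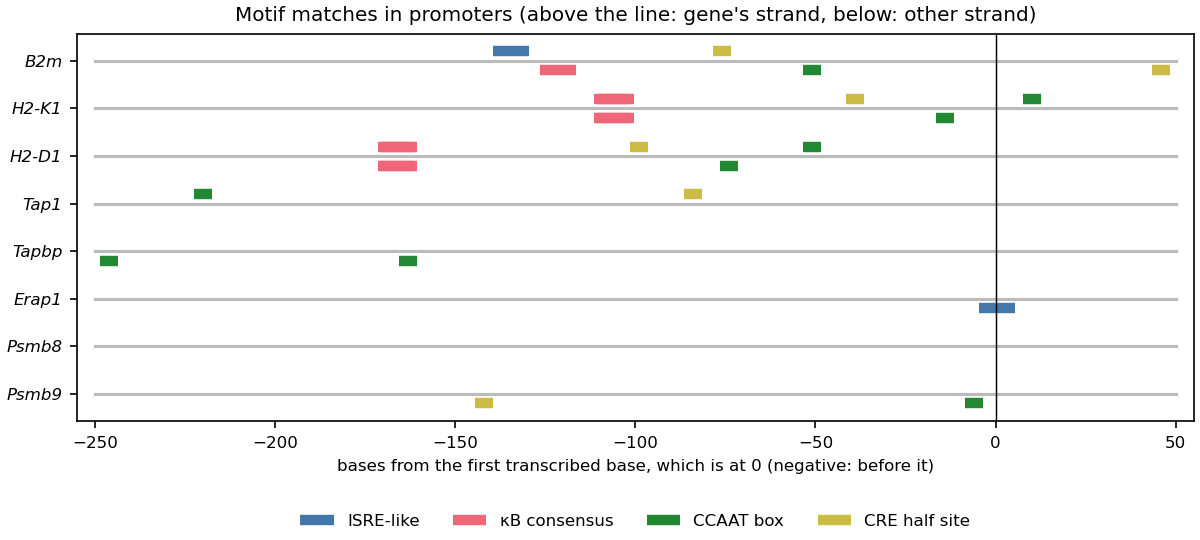
Matches to 4 motifs (colors) in the promoter windows of 8 class I genes (rows), by distance in bases from the first transcribed base, above the line where the match is on the strand of the gene. Only exact matches to the patterns searched are drawn. Such κB matches lie in *B2m*, *H2-K1* and *H2-D1*, ISRE-like ones in *B2m* and *Erap1*, and *Psmb8* has no match to any of the 4.

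Genes that most resembled the members over the 8 samples were sought among the 9187 genes whose mean CPM reached 10, by the root mean square difference of log2 CPM centered on each gene's mean. *Tapbp* was nearest to *Bcl2l11* (difference 0.0463), *Erap1* to *Mosmo* (0.0501), *Psmb8* to *Ptgs2* (0.123) and *Psmb9* to *Herpud1* (0.0934). *B2m* was nearest to *Dusp4* (0.0367), *H2-D1* to *Azin1* (0.0307), *H2-K1* to *Acad11* (0.0317), *Tap1* to *Zzz3* (0.0360) and *Tap2* to *Fam214a* (0.0734). Among the 5 genes nearest to the mean profile of the 9 tested members were *Icmt* (0.0342), *Ier5* (0.0485), *Map3k3* (0.0491) and *Tmem184b* (0.0558). The members themselves were not among the genes searched.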

How the data were processed

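RNA-seq counts and TPM of 8 samples were used, 2 per group, grouped by the genotype and treatment in the labels. Per the labels the submitters' processing notes name HISAT2, HTSeq, DESeq2 and mm10, whereas the study's methods name TopHat2 (best match per read) and strand-specific HTSeq-count 0.13.5 on GRCm38/mm10. Which aligner made the deposited counts is not settled by these. The counts deposited by the authors are raw per gene symbol. The TPM values deposited by the authors equal the count divided by the table's gene length, scaled to the same sum in each sample. A second table with 8 columns repeats these TPM values and was not used.

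In R 4.3.3, edgeR 4.0.16 was fitted to the counts of all 8 samples with a mean per group, after its default expression filter (13921 of 39089 genes kept) and TMM scaling, and tested by quasi-likelihood with Benjamini-Hochberg adjustment over all genes tested. A gene was called at an adjusted p under 0.05 and at least 1.5-fold. CPM is scaled by TMM, and intervals are normal 95% intervals from the SE. The scripts were tested on simulated data. The alternatives were DESeq2 1.42.0, limma 3.58.1 on log2(TPM + 1) and log2(TPM + 0.1), library size scaling, a fit without the filter, one that asked for 10 counts in each sample, a replicate block, a test against 1.5-fold, only the groups compared, fixed coefficients of variation of 0.1 and 0.2, and leaving out each sample. All 10 members were named. From each wider list, up to 4 called genes with the largest change and a mean of at least 1 CPM were given, with *Psmb5*, *Psmb6*, *Psmb7*, *Psmb10*, *Irf1*, *Rfx5* and *H2-T23*, and the nearest gene of each member and the 5 nearest of their mean. *H2-Q6*, *Rela* values by sample and the marker genes were named beside that rule, after their values were seen. A few genes that the rule names are not reported here. The members and lists were chosen with earlier results of these data known.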

Additional observations from a re-analysis of the deposited data

Results flagged for a closer look

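By the interaction term of the edgeR fit, the effect of JSH-23 differed between KO and WT in 8 of the 9 tested class I genes, all in the same direction. This counts an adjusted p under 0.05 without the fold threshold, which 5346 of all 13921 genes passed. The largest differences (KO minus WT, log2 scale) were those of *Tapbp* (-0.93), *Psmb9* (-0.84) and *Erap1* (-0.70). Those of *Tap2* (-0.55), *H2-K1* (-0.46), *Tap1* (-0.35), *H2-D1* (-0.32) and *B2m* (-0.23) were under 1.5-fold. Adjusted p ran from 1.46e-23 for *Tapbp* to 0.0296 for *Tap1*. With DESeq2 6 of the 9 had an adjusted p under 0.05, as had 3593 of all genes. With a fixed coefficient of variation of 0.1, 2 of the 9 had, as had 747 of all genes. The 8 genes are not independent tests, since each rests on the same 8 samples and 4 of the members lie side by side on chromosome 17.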

How the results depend on the processing

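*Psmb8* in KO against WT under vehicle, and *Tapbp* and *Erap1* with JSH-23 in KO, were called in every alternative run. Members higher in KO under vehicle (2) came to 3 with library size scaling, which added *B2m* (0.59), and without the filter, which added *Nlrc5*, and to 1 in the test against 1.5-fold and with a coefficient of variation of 0.2, and ranged from 2 to 3 with 1 sample left out. Members higher in KO under JSH-23 (1) came to 0 with library size scaling, on both TPM scales, in the 1.5-fold test and at 0.2, and ranged from 0 to 1 with 1 sample left out. Members lower there (0) came to 1, *Tapbp*, with library size scaling and on both TPM scales. Members lower with JSH-23 in KO (4) came to 5 on both TPM scales, which added *H2-K1*, and without the filter, which added *Nlrc5*, and to 2 in the 1.5-fold test and at 0.2, and ranged from 2 to 5 with 1 sample left out. Members higher with JSH-23 in WT (1) came to 0 with library size scaling, at least 10 counts per sample, on both TPM scales, in the 1.5-fold test, with only the groups compared and at 0.2, and ranged from 0 to 1. Members lower in the interaction (3) came to 5 with library size scaling, 6 on both TPM scales, 1 in the 1.5-fold test and 0 at 0.2, and ranged from 2 to 4.

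Directions turned for *H2-D1* in KO against WT under JSH-23 (0.00 with library size scaling, -0.11 on both TPM scales), and with JSH-23 in KO for *B2m* (-0.06 on both TPM scales) and *H2-D1* (-0.02 and -0.15). Values near 0 turned too: *Psmb9* in KO against WT under JSH-23 (-0.08 on log2(TPM + 1), -0.09 on log2(TPM + 0.1)), *Tap2* with JSH-23 in KO (-0.08 with library size scaling, -0.20 on both TPM scales) and *Tapbp* with JSH-23 in WT (-0.02 on both). With 1 sample left out, the range crossed 0 for *H2-K1* (-0.05 to 0.02) and *Psmb9* (-0.04 to 0.26) in KO against WT under JSH-23, for *Tap2* (-0.06 to 0.14) with JSH-23 in KO, and for *Tapbp* (-0.02 to 0.07) and *Psmb8* (-0.20 to 0.05) with JSH-23 in WT. The cause was not tested. Of 491 fold changes of members in fits that kept all samples, 435 kept their direction and call, and 15 turned direction. With 1 sample left out, 8 of 360 turned direction. *Nlrc5* without KO vehicle replicate 1 was added after seeing the data and is counted among the 491.

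Replicate numbers did not pair the samples (correlation of replicate differences between groups from -0.09 to 0.04). With a replicate block, calls over all genes in KO against WT under vehicle came to 1750 against 1760, and member counts stayed 2, 1, 4, 1 and 3. The coefficient of variation of 0.2 was set by hand as a larger spread than the 1.61% measured. Counts of *Psmb8* and *Psmb9*, from 48 to 169, limit their precision.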
